A study of Mus musculus with 12 samples.

Results

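Expression of 10 genes of haem breakdown and iron handling was followed in LPS-stimulated RAW 264.7 cells. They are Hmox1, Hmox2, Slc48a1, Blvra, Blvrb, Fth1, Slc40a1, Tfrc, Bach1 and Slc11a1. They were chosen by name, as the probe set annotated to each symbol, with earlier results of these data known. Their counts set against all genes are thus descriptions and no independent support. All 10 of the 10 genes were measured, among 19505 genes in all. Each had 1 probe set, which lay above the brightest background probe on all 12 arrays.

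The arrays formed 4 groups of 3, with 1 Affymetrix mouse array per sample. RAW 264.7 is an established mouse macrophage-like line, and all cells, the comparison group included, received lipopolysaccharide (LPS), a bacterial outer membrane component that activates macrophages, at 500 ng/mL. The first group also received inulin, a plant fructan, at 500 µg/mL together with TsSP at 50 µg/mL, the second TsSP at 50 µg/mL, the third inulin at 500 µg/mL, and the fourth LPS alone. TsSP is written as in the labels, which do not spell it out, and the design text speaks of helminth products. Cells were kept 6 hours at 37 °C and 5% CO2, and no group without LPS was analysed here. The labels do not say whether the 3 samples of a group were separate cultures, so the spread that the p-values are set against may be technical.

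Haem that reaches a macrophage, above all from ingested red cells, is carried out of the phagosome, opened by haem oxygenase into biliverdin, carbon monoxide and iron, and the biliverdin is reduced to bilirubin. The iron is stored in ferritin or leaves the cell through ferroportin. Haem also releases the repressor BACH1 from DNA, where BACH1 and the activator NRF2 compete for the same sites, each paired with a small MAF protein. Ferritin and the transferrin receptor are controlled after transcription as well, by iron regulatory proteins that bind their mRNAs, a step that RNA levels do not measure fully. RAW 264.7 cells are known to lack functional SLC11A1 protein, which limits them as a model for that transporter. In bulk samples, a higher share of cells with a transcript and more of it per cell cannot be told apart.

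Values are the deposited log2 signals, in which a step of 1 is a doubling. Array medians over all probe sets lay between 5.16 and 5.30, and 8771 to 9059 genes lay above background per array. LPS replicate 1 stood apart, with the lowest array median (5.16) and a background median of 4.99, against 5.20 to 5.43 on the others. The positive control probe sets had medians of 11.22 to 11.36 on the 6 arrays with TsSP and 11.00 to 11.21 on the 6 arrays without it. All 9 measured macrophage markers lay above background on every array, and all 6 measured markers of the red cell lineage lay below it on every array. The array number limits the precision.

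With TsSP, 6 of the 10 genes passed the test against LPS alone, 5 higher and 1 lower. The 5 that rose were Hmox1, Slc48a1, Slc11a1, Blvrb and Bach1, and the 1 that fell was Slc40a1. Across all genes 18.1% passed in this comparison, 11% as higher and 7.08% as lower (limma, Benjamini-Hochberg adjusted p under 0.05). Of the 19505 genes, 9022 were above background in at least 1 group, whereas the 10 were so on every array. The all-gene shares here and below thus include many dim genes. A share among genes as bright as the 10 is not given. The median log2 change was 0.30 over the 10 genes and 0.02 over all genes. Without LPS replicate 1 the count was 5, with Bach1 no longer past the threshold. When TsSP was added to cells with inulin, 5 of 10 passed, 4 higher and 1 lower, against 16.7% of all genes (8.66% higher and 7.99% lower). The changes in this comparison share no array with the first, but the spread behind both sets of p-values comes from all 12 arrays. Inulin and TsSP together against LPS alone also gave 5 of 10, 4 higher and 1 lower, against 17.6% of all genes (10.3% higher and 7.3% lower). That comparison shares the LPS arrays with the first one and the arrays of both agents with the one on inulin.

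**Figure D1:**
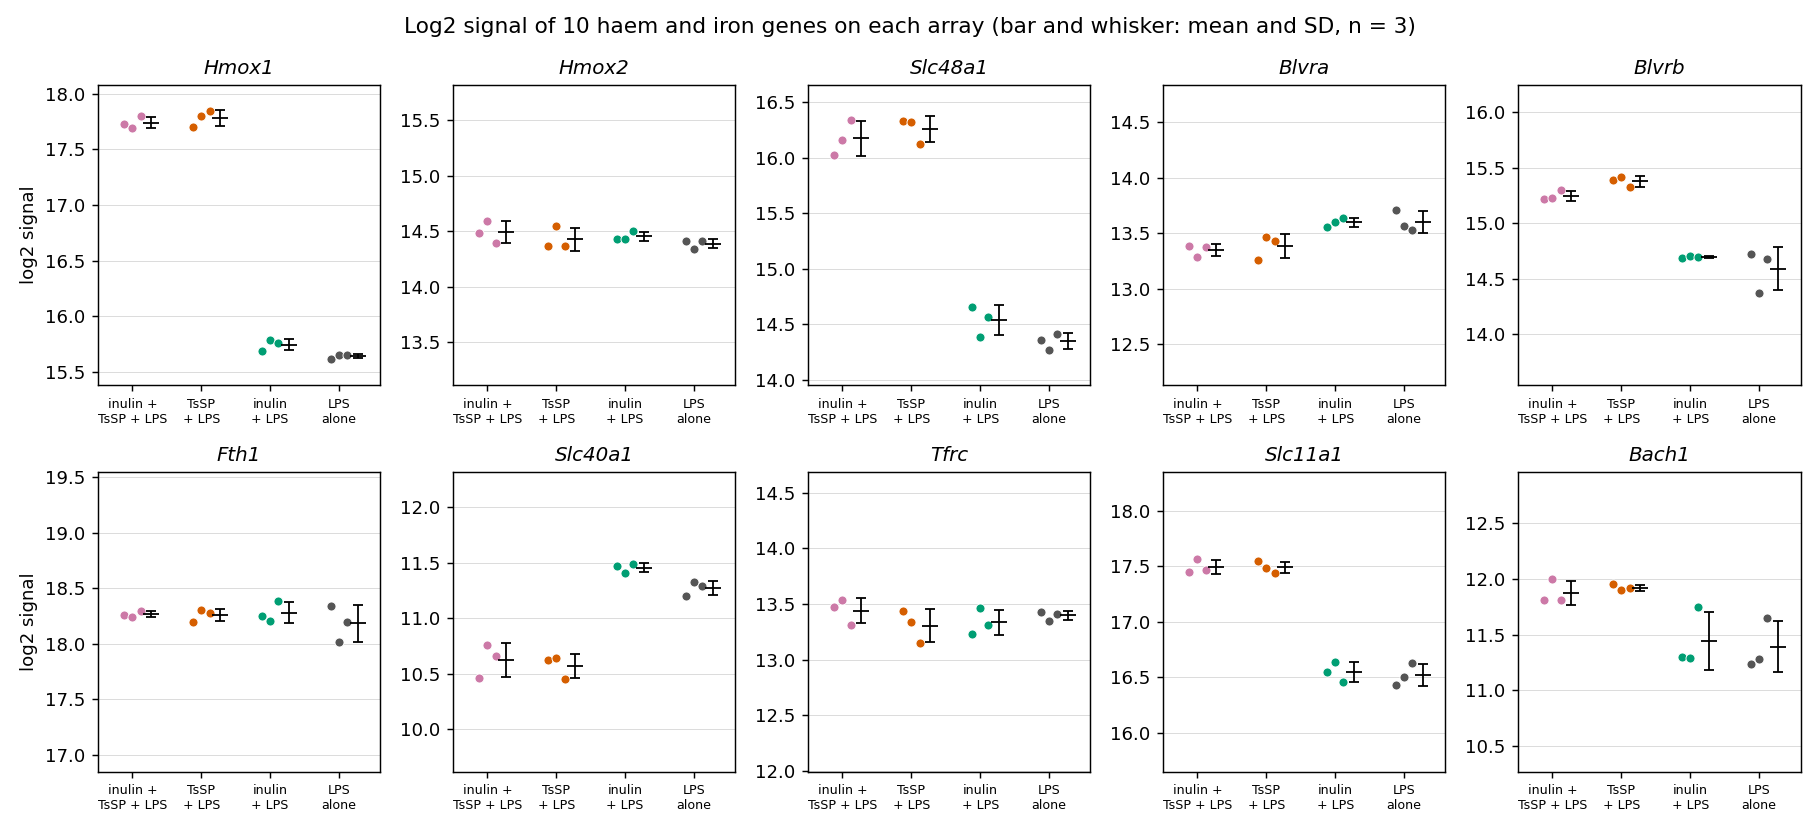
Log2 signal of each gene (vertical axis, each panel spanning the same log2 distance) on the 3 arrays of each group, in the order inulin with TsSP, TsSP, inulin and LPS alone, with mean and SD beside the points. Hmox1, Slc48a1, Slc11a1 and Blvrb are higher on all 6 arrays with TsSP than on all 6 without, Slc40a1 is lower on all 6, and Hmox2, Fth1 and Tfrc overlap. Bach1 is also higher and Blvra lower on all 6, by small gaps. The share of all genes that part the arrays in this way is not given.

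The 4 stretches of promoter sequence given here are shown because they belong to the genes with a RefSeq promoter entry that rose with TsSP, and to Blvra, which carries the 1 motif match found. Promoter entries were at hand for 7 of the 10 genes. Each stretch is the 60 bases before the gene's first annotated base, on the plus strand of GRCm38.p6, with capitals for the motif match.
Blvra, chr2:127070569-127070628: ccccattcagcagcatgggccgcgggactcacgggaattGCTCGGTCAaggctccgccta
Blvrb, chr7:27447918-27447977: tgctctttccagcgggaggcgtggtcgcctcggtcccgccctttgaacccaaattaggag
Bach1, chr16:87698894-87698953: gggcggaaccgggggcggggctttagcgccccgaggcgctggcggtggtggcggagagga
Slc11a1, chr1:74374954-74375013: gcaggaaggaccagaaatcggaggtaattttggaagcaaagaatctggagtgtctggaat
The letters TGACNNNGC, the core shared by sites of NRF2 and BACH1 with small MAF proteins, were searched on both strands from 250 bases before to 50 bases after each start. They occurred in 1 of the 12 windows of the 7 genes, the Blvra window, and in 12.4% of all 32851 windows. The match lay on the reverse strand and began 49 bases before the start site of that window. That site differs from the gene's first annotated base, before which the printed stretch ends. The AP-1 letters TGAGTCA occurred in 0 of the 12 windows and in 5.2% of all. A match of letters is not a bound site, and distant enhancers such as those known for Hmox1 lie outside these windows.

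Hmox1 encodes the inducible haem oxygenase and was measured at chr8:75093618-75100593 (GRCm38.p6, probe set TC0800000845.mm.2). Its log2 signals were 17.73, 17.69 and 17.80 with inulin and TsSP, 17.70, 17.80 and 17.84 with TsSP, 15.69, 15.78 and 15.76 with inulin, and 15.62, 15.65 and 15.65 with LPS alone. The arrays with TsSP and those without were far apart, and no array lay between 15.78 and 17.69. The rise over LPS alone was 4.42-fold with TsSP (log2 change 2.14, SE 0.10, limma adjusted p = 1.25e-07). With both agents it was 4.29-fold (adjusted p = 1.27e-07). TsSP added to inulin gave 3.99-fold (log2 change 2.00, adjusted p = 1.72e-07).

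Hmox2 encodes the constitutive haem oxygenase, at chr16:4726361-4766742. Its signals were 14.49, 14.59 and 14.40 with inulin and TsSP, 14.37, 14.55 and 14.37 with TsSP, 14.43, 14.43 and 14.50 with inulin, and 14.41, 14.34 and 14.42 with LPS alone. The 4 groups lay within a narrow band. The log2 change with TsSP was 0.04, with a 95% interval of -0.20 to 0.27 and an adjusted p of 0.868 in limma, and TsSP added to inulin also gave 0.04 (interval -0.20 to 0.27).

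Slc48a1 encodes HRG1, the transporter that moves haem out of the phagolysosome into the cytosol, at chr15:97784365-97792692. Its signals were 16.03, 16.16 and 16.34 with inulin and TsSP, 16.33, 16.32 and 16.12 with TsSP, 14.66, 14.39 and 14.57 with inulin, and 14.36, 14.27 and 14.41 with LPS alone. All arrays with TsSP lay above all arrays without it, as for Hmox1. The rise with TsSP was 3.76-fold (log2 change 1.91, SE 0.127, limma adjusted p = 1.54e-06). With both agents it was 3.54-fold (adjusted p = 2e-06), and TsSP added to inulin gave 3.11-fold (log2 change 1.64, adjusted p = 4.54e-06).

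The biliverdin reductase genes did not move together. Blvrb, whose enzyme reduces flavins and the beta isomer of biliverdin, lies at chr7:27447978-27465981. Its signals were 15.22, 15.22 and 15.30 with inulin and TsSP, 15.39, 15.42 and 15.32 with TsSP, 14.69, 14.71 and 14.70 with inulin, and 14.73, 14.37 and 14.68 with LPS alone. The groups with TsSP were again wholly above the others, and LPS replicate 2 was the lowest array. Blvrb rose 1.72-fold with TsSP (SE of the log2 change 0.116, limma adjusted p = 0.000589), 1.57-fold with both agents (adjusted p = 0.00202) and 1.46-fold with TsSP added to inulin (adjusted p = 0.00639).

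Blvra, whose enzyme makes bilirubin from the alpha isomer that haem oxygenase releases, lies at chr2:127070629-127097084. Its signals were 13.38, 13.28 and 13.37 with inulin and TsSP, 13.26, 13.46 and 13.43 with TsSP, 13.56, 13.60 and 13.63 with inulin, and 13.71, 13.56 and 13.53 with LPS alone. Its promoter stretch, shown above, holds the motif match. The arrays with TsSP lay below the others by a small step and did not overlap with them. The log2 change was -0.22 with TsSP (interval -0.46 to 0.02), -0.25 with both agents and -0.25 with TsSP added to inulin, at limma adjusted p-values of 0.222, 0.148 and 0.159, so none passed. With the arrays centred on their positive controls, Blvra passed in the comparisons of TsSP (log2 change -0.42, adjusted p = 0.0356) and of both agents (-0.45, adjusted p = 0.0274) with LPS alone. With a mean-variance trend it passed for both agents (adjusted p = 0.0307) and for TsSP added to inulin (adjusted p = 0.0346), and with genes above background only at 0.0338 and 0.0372.

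Slc40a1 was the single gene of the 10 that fell. It encodes ferroportin, the exporter of iron from cells, at chr1:45908070-45926532. Its signals were 10.46, 10.76 and 10.66 with inulin and TsSP, 10.62, 10.65 and 10.45 with TsSP, 11.47, 11.41 and 11.49 with inulin, and 11.20, 11.33 and 11.29 with LPS alone. Every array with TsSP lay below every array without it, and the inulin arrays were the highest. Slc40a1 was 1.62-fold lower with TsSP than with LPS alone (log2 change -0.70, SE 0.116, limma adjusted p = 0.00127). It was 1.57-fold lower with both agents (adjusted p = 0.00209) and 1.78-fold lower with TsSP added to inulin (log2 change -0.83, adjusted p = 0.000391).

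Fth1, the heavy chain of the iron store ferritin, lies at chr19:9980600-9985111. Its signals were 18.26, 18.24 and 18.30 with inulin and TsSP, 18.19, 18.30 and 18.27 with TsSP, 18.25, 18.21 and 18.38 with inulin, and 18.34, 18.01 and 18.20 with LPS alone. The groups overlapped, and the LPS arrays spanned the widest range. The log2 change with TsSP was 0.07 (interval -0.18 to 0.33, limma adjusted p = 0.744), and TsSP added to inulin gave -0.01 (interval -0.26 to 0.24). These signals are near the top of the deposited range, 18.94, and whether the scale is compressed there was not tested. The same limit holds for Hmox1 and Slc11a1 on the arrays with TsSP, which reached 17.84 and 17.57, and so for their folds.

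Tfrc encodes the transferrin receptor, which takes up iron bound to transferrin, at chr16:32608896-32632794. Its signals were 13.48, 13.54 and 13.31 with inulin and TsSP, 13.44, 13.34 and 13.15 with TsSP, 13.23, 13.46 and 13.31 with inulin, and 13.43, 13.35 and 13.41 with LPS alone. All 4 groups overlapped. The log2 change was -0.09 with TsSP (interval -0.36 to 0.17, limma adjusted p = 0.696), 0.04 with both agents and 0.11 with TsSP added to inulin.

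Slc11a1 encodes NRAMP1, a metal transporter of the phagosome membrane that moves iron and manganese, at chr1:74375014-74386057. Its signals were 17.45, 17.57 and 17.46 with inulin and TsSP, 17.54, 17.48 and 17.44 with TsSP, 16.55, 16.64 and 16.45 with inulin, and 16.43, 16.50 and 16.63 with LPS alone. The groups with TsSP lay at one level and those without at another, with no overlap. Slc11a1 rose 1.96-fold with TsSP (SE of the log2 change 0.108, limma adjusted p = 7.65e-05), 1.96-fold with both agents (adjusted p = 7.24e-05) and 1.93-fold with TsSP added to inulin (adjusted p = 9.32e-05).

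Bach1, the haem-sensing repressor whose targets include Hmox1, lies at chr16:87698954-87733346. Its signals were 11.81, 12.00 and 11.81 with inulin and TsSP, 11.95, 11.90 and 11.91 with TsSP, 11.29, 11.29 and 11.74 with inulin, and 11.23, 11.28 and 11.65 with LPS alone. The arrays with TsSP lay above the others, but replicate 3 of the inulin and of the LPS group came close to them. Bach1 passed as higher with TsSP against LPS alone, at 1.45-fold (log2 change 0.53, SE 0.156, limma adjusted p = 0.0347). It did not pass with both agents (log2 change 0.48, adjusted p = 0.0545) or with TsSP added to inulin (0.43, adjusted p = 0.0916).

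The Bach1 call was the weakest of the 6. It held in 13 of 21 alternatives, at adjusted p-values of 0.00254 to 0.168, and the log2 change stayed above 0 in all 21. Several alternatives could not move the change itself, such as the trend or leaving out an array of another group. The sign in those is no further evidence. The call was lost without LPS replicate 1 (adjusted p = 0.111), LPS replicate 2 (0.105), TsSP replicate 1 (0.0925), TsSP replicate 2 (0.0799) or TsSP replicate 3 (0.0843). It was also lost after quantile normalization (0.0523), with only the compared groups in the fit (0.0634) and with positive control centring (0.168). Conversely, Bach1 passed for both agents without LPS replicate 3 (0.0248) or inulin replicate 3 (0.0316), and for TsSP added to inulin without inulin replicate 3 (0.0278).

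**Figure D2:**
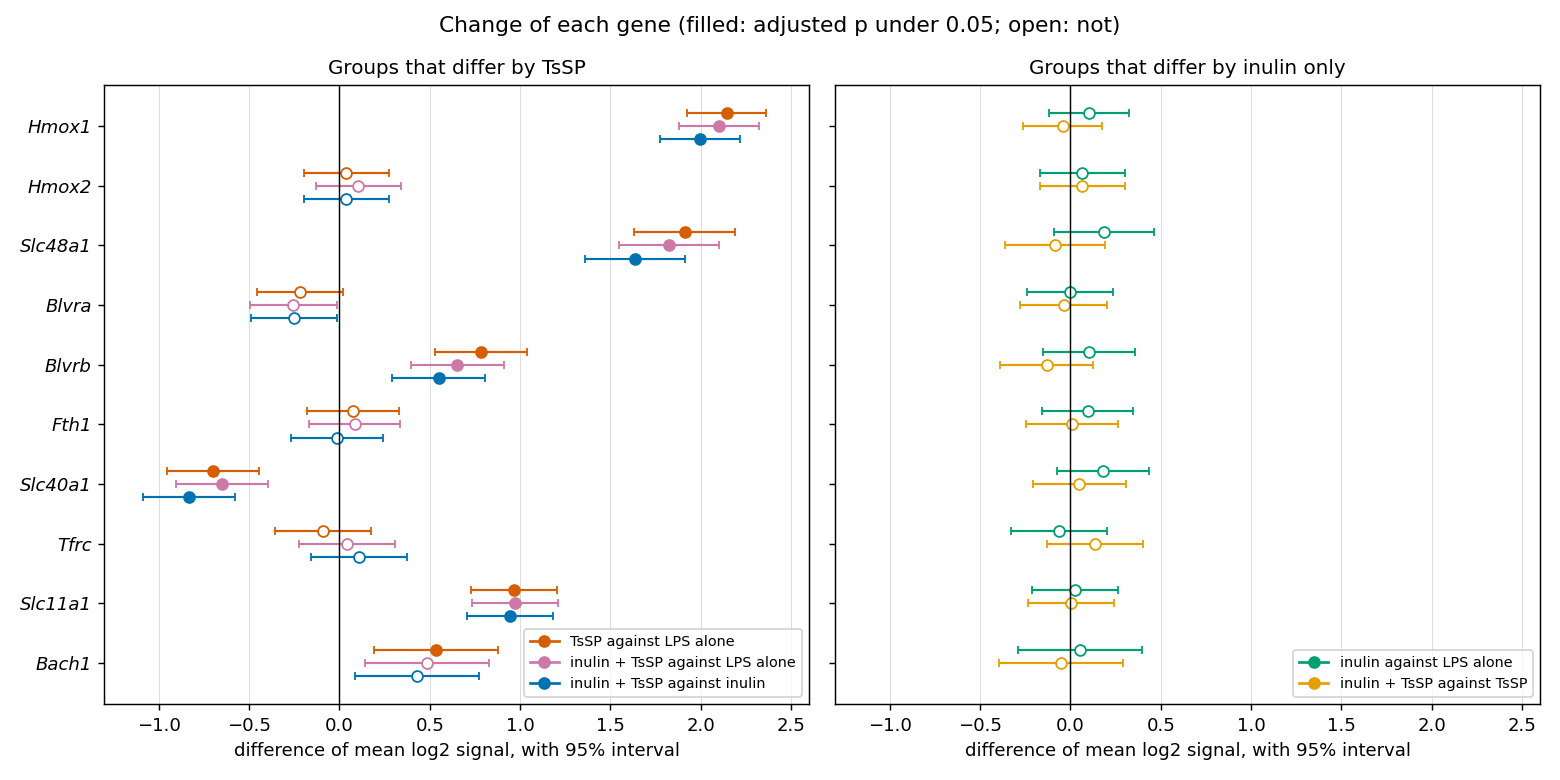
Difference of mean log2 signal (horizontal axis) with its 95% interval for each gene, in the 3 comparisons of groups that differ by TsSP (left) and the pair that differ by inulin only (right). Filled points passed an adjusted p of 0.05. On the left Hmox1 and Slc48a1 lie at log2 changes of 1.64 to 2.14, and on the right all points are open, between -0.13 and 0.19.

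Inulin by itself moved none of the 10 genes past the threshold. Against LPS alone, the log2 changes ran between -0.06 (Tfrc) and 0.19 (Slc48a1), and the 95% intervals reached no further than -0.33 and 0.47. The smallest limma adjusted p among the 10 was 0.893, for Slc40a1. In this comparison 0% of all genes passed, the smallest adjusted p of any gene being 0.332, and 1143 genes had an unadjusted p under 0.05, with 0 of the 10 among them.

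Inulin added to TsSP gave the same count. The changes lay between -0.13 (Blvrb) and 0.13 (Tfrc), with intervals within -0.39 and 0.40, and the smallest adjusted p among the 10 was 0.993 in limma. Again 0% of all genes passed, and 971 had an unadjusted p under 0.05, with 0 of the 10 among them. For Hmox1 the change was -0.04, with an interval of -0.26 to 0.18.

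The interaction, which asks whether TsSP acted differently with inulin than without it, passed for 0% of all genes, with 1089 at an unadjusted p under 0.05 and 0 of the 10 among them. The largest term was that of Slc48a1, at -0.27 on the log2 scale (interval -0.67 to 0.12, limma adjusted p = 0.962). Blvrb followed at -0.24 (interval -0.60 to 0.13), and the Hmox1 term was -0.15 (interval -0.46 to 0.17). The widest of the 10 intervals was that of Bach1, -0.59 to 0.38.

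By group mean, Hmox1, Slc48a1 and Blvrb were each highest with TsSP, followed by both agents, inulin and LPS alone. Hmox1 averaged 17.74 ± 0.052 with inulin and TsSP, 17.78 ± 0.075 with TsSP, 15.74 ± 0.049 with inulin and 15.64 ± 0.020 with LPS alone (log2 signal, SD, n = 3). Slc48a1 averaged 16.18 ± 0.16 with inulin and TsSP, 16.26 ± 0.12 with TsSP, 14.54 ± 0.14 with inulin and 14.35 ± 0.073 with LPS alone. Blvrb averaged 15.25 ± 0.043 with inulin and TsSP, 15.38 ± 0.048 with TsSP, 14.70 ± 0.010 with inulin and 14.59 ± 0.19 with LPS alone. In each, the differences between the groups that share TsSP, and between those that lack it, did not pass the test, and the 3 comparisons across TsSP that were run did. Slc40a1 ran the other way, at 10.62 ± 0.15 with both agents and 10.57 ± 0.11 with TsSP, against 11.46 ± 0.044 with inulin and 11.27 ± 0.065 with LPS alone.

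The partners of BACH1 and the genes that NRF2 also controls were the list with the highest median change among the 6 lists of related genes. The lists too were chosen with earlier results of these data known, so their counts are descriptions. With TsSP, 7 of 13 measured genes rose and 2 fell, where 11% of all genes were called higher and 7.08% lower. The list's median log2 change was 0.72, against 0.02 over all genes. Gclm, the modifier subunit of the enzyme that starts glutathione synthesis, rose 2.38-fold (limma adjusted p = 2.14e-05). The cystine importer gene Slc7a11 rose 2.04-fold, the catalytic subunit gene Gclc 1.77-fold and Srxn1, which repairs oxidised peroxiredoxins, 1.72-fold. The 2 that fell were Mafk, a small MAF partner of both BACH1 and NRF2, at 2.47-fold lower (adjusted p = 0.000331), and Keap1, the adaptor that marks NRF2 for degradation, at 1.49-fold lower (adjusted p = 0.00176). Nfe2l2, which encodes NRF2, differed by 0.02 (interval -0.39 to 0.43) and did not pass. With both agents against LPS alone 7 rose and 2 fell (10.3% and 7.3% of all genes), and with TsSP added to inulin 6 rose and 2 fell (8.66% and 7.99% of all genes), in which Gclm was 2.38-fold higher and Mafk 2.81-fold lower than with inulin. The first of these counts includes Maff and Nqo1, called in 13 of 20 and 14 of 21 alternatives, and the other includes Nqo1 and Me1, called in 16 and 7 of 21.

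**Figure D3:**
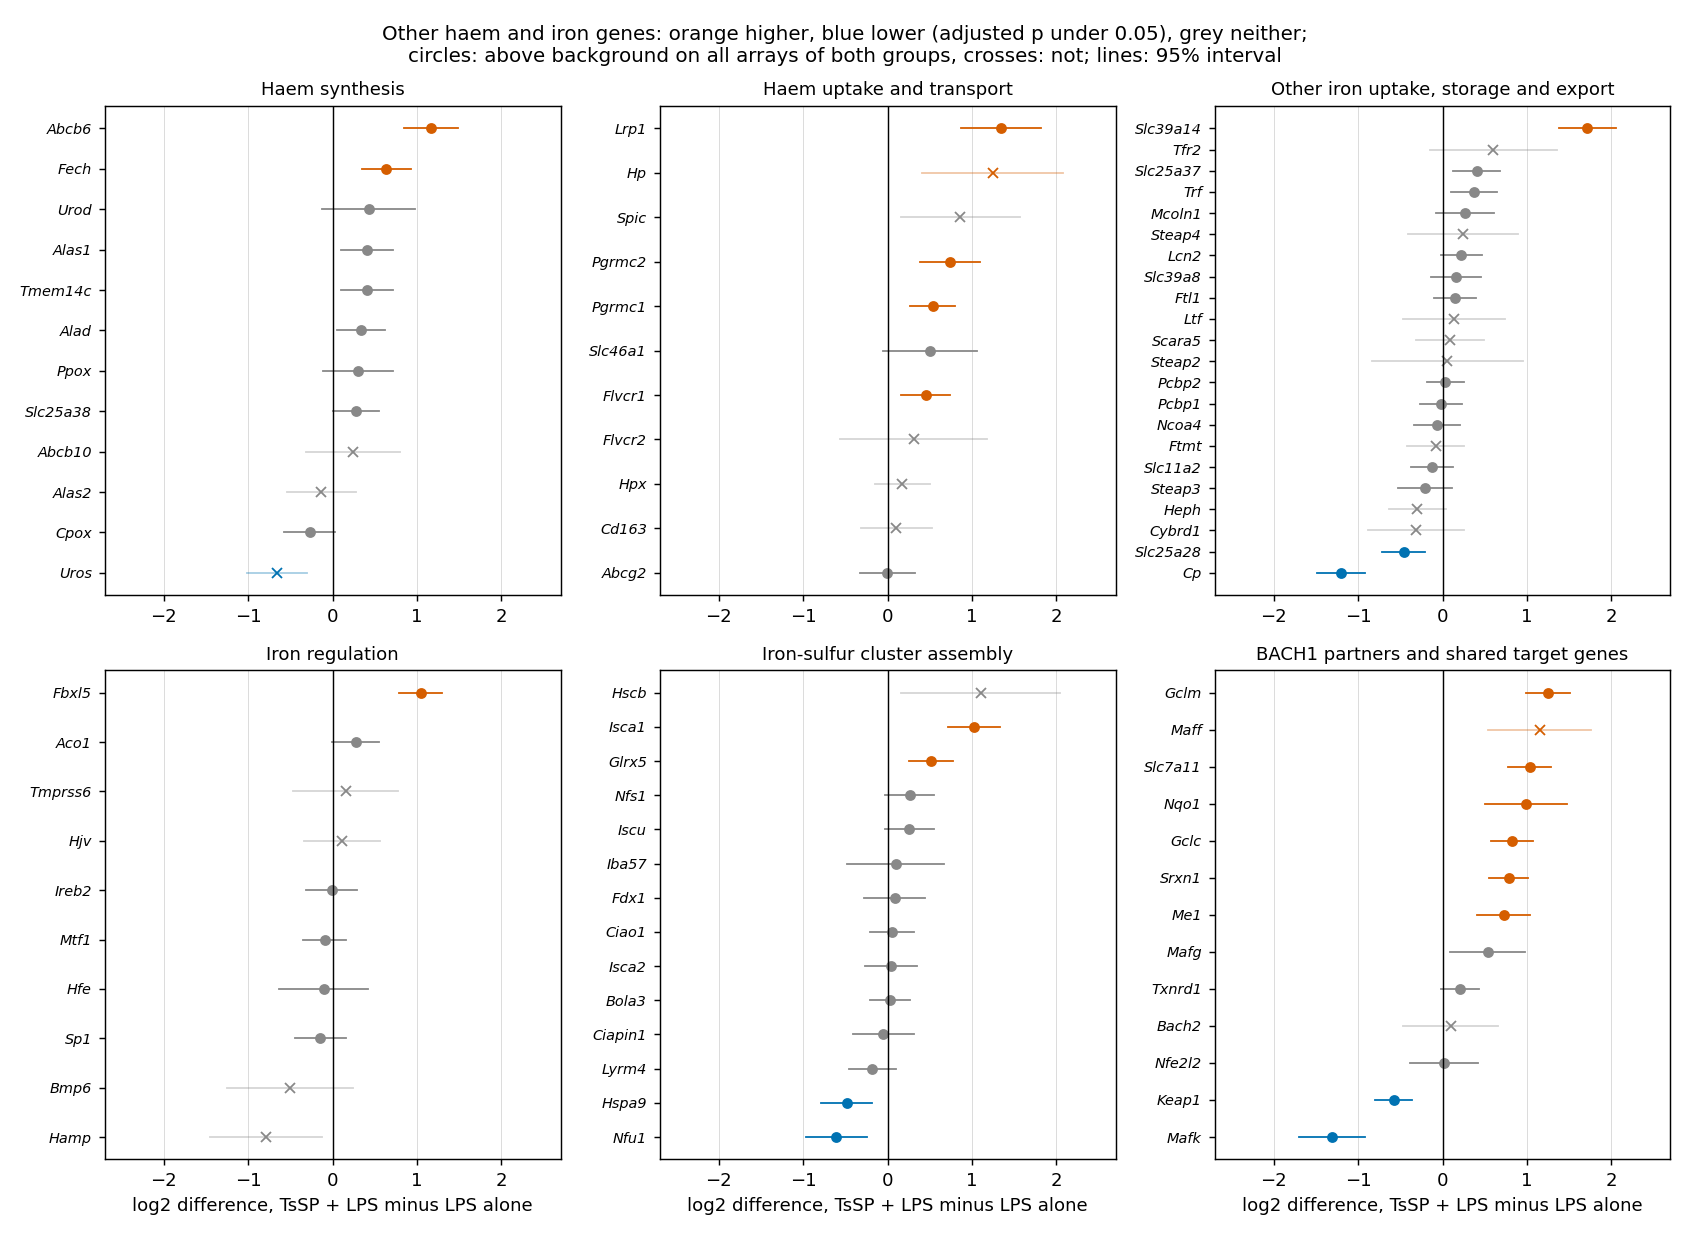
Log2 difference of TsSP from LPS alone (horizontal axis) for the measured genes of 6 lists, with 95% intervals, orange for higher and blue for lower at an adjusted p under 0.05. Most genes are grey, 7 of 13 genes in the BACH1 panel are orange, and crosses mark genes that some of the 6 arrays did not measure above background.

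Among genes of haem synthesis, 2 of 12 rose with TsSP and 1 fell, where 11% of all genes were called higher and 7.08% lower. Abcb6, a porphyrin transporter gene, rose 2.24-fold (limma adjusted p = 0.000183), and Fech, whose enzyme inserts iron into protoporphyrin, rose 1.55-fold (adjusted p = 0.00544, and 0.068 with positive control centring). Uros passed as lower but was dimmer than background on all 6 arrays compared, so no fold is given, and it did not pass without LPS replicate 2 (0.0567), without TsSP replicate 1 (0.0593) or with a mean-variance trend (0.0723). Alas1, the first enzyme of the pathway, had a log2 change of 0.41 (adjusted p = 0.0648) and did not pass. The list's median change was 0.32. With genes above background only, a fit that leaves out Uros, 5 of the list rose and 0 fell with TsSP. With TsSP added to inulin that setting gave 6 higher and 1 lower, and only the compared groups gave 1 higher and 0 lower. With both agents 3 rose (Abcb6, Fech and Tmem14c) and 1 fell (Cpox), against 17.6% of all genes called, and with TsSP added to inulin 3 rose (Abcb6, Slc25a38 and Fech) and 1 fell (Cpox), against 16.7%. With both agents, Tmem14c did not pass without LPS replicate 2 (0.0996) or without replicate 1 (0.0744) or 3 (0.0918) of the cells with both, nor with quantile normalization (0.0546), median centring (0.056), only the compared groups (0.0782) or positive control centring (0.185), which also ended the Fech call (0.0793). With TsSP added to inulin, Fech did not pass without inulin replicate 1 (0.0887) or 3 (0.0711) or without any of the 3 arrays with both agents (0.0515 to 0.0609), with only the compared groups (0.0675) or with positive control centring (0.0994). Slc25a38 did not pass there without inulin replicate 2 (0.0823) or replicate 1 (0.0658) or 3 (0.0559) of both agents, with only the compared groups (0.0611) or with positive control centring (0.113). Cpox did not pass there without replicate 3 of inulin (0.0554) or of both agents (0.0586), or with only the compared groups (0.0537).

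Of 11 genes of haem uptake and transport, 5 rose with TsSP and 0 fell, with a median change of 0.50, where 11% of all genes were called higher and 7.08% lower. The 5 include Hp, which was below background, and Flvcr1, whose call held in 12 of 21 alternatives. Lrp1, the receptor for haem bound to haemopexin, rose 2.53-fold (limma adjusted p = 0.00109). The haem-binding membrane protein genes Pgrmc2 and Pgrmc1 rose 1.67-fold and 1.45-fold, at adjusted p-values of 0.00726 and 0.00913 that became 0.0625 and 0.0955 with positive control centring. Flvcr1, described as a haem exporter, rose 1.37-fold (adjusted p = 0.0354). That call was lost without LPS replicate 2 (0.126), LPS replicate 3 (0.0767), TsSP replicate 1 (0.11) or TsSP replicate 2 (0.106), after quantile normalization (0.121), with median centring (0.0855), with positive control centring (0.293), with the replicate block (0.0596) and with only the compared groups (0.111).

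Hp, which encodes haptoglobin, passed as higher (limma adjusted p = 0.0415) but was dimmer than background on all 6 arrays compared, and its call held in 10 of 20 alternatives. Without any 1 of the 3 LPS or 3 TsSP arrays Hp did not pass, at adjusted p-values of 0.0516 (LPS replicate 1), 0.122 (LPS replicate 2), 0.102 (LPS replicate 3), 0.117 (TsSP replicate 1), 0.0623 (TsSP replicate 2) and 0.109 (TsSP replicate 3). Leaving out inulin and TsSP replicate 1 gave 0.0548. The haptoglobin receptor gene Cd163 lay below background on all of these arrays. With both agents 5 rose (Pgrmc2, Pgrmc1, Lrp1, Spic and Flvcr1) and 0 fell, against 10.3% of all genes higher and 7.3% lower. With TsSP added to inulin 3 rose (Pgrmc1, Lrp1 and Pgrmc2) and 0 fell, against 8.66% higher and 7.99% lower. Genes above background only gave 4 higher and 1 lower there. Spic, a transcription factor of iron-recycling macrophages, was dimmer than background on all 6 arrays of the comparison in which it passed, and did not pass without LPS replicate 3 (0.0656) or replicate 1 (0.0584) or 2 (0.0649) of both agents, or with only the compared groups (0.0591). With both agents Flvcr1 was called in 6 of 21 alternatives, and in 2 of the 12 that left out an array. With TsSP added to inulin, Pgrmc2 did not pass without inulin replicate 2 (0.0718) or replicate 1 of both agents (0.0699), or with positive control centring (0.0684).

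Of 22 other genes of iron uptake, storage and export, 1 rose and 2 fell with TsSP, against 18.1% of all genes called (11% higher and 7.08% lower). Of the 22, 14 were above background in at least 1 group. A mean-variance trend gave 4 higher and 2 lower, and genes above background only gave 3 higher and 2 lower. These settings gave the same counts for both agents against LPS alone. Slc39a14 was the 1 that rose, at 3.28-fold (limma adjusted p = 1.52e-05), and encodes ZIP14, an importer of iron not bound to transferrin. Cp, which encodes the ferroxidase ceruloplasmin that works with ferroportin, was 2.30-fold lower (adjusted p = 5.31e-05). Slc25a28, a mitochondrial iron importer gene, was 1.38-fold lower (adjusted p = 0.0177), but not past the threshold without TsSP replicate 1 (0.0513) or TsSP replicate 3 (0.0709), or with only the compared groups (0.0507). The ferritin light chain gene Ftl1 differed by 0.15 (interval -0.10 to 0.40) and Slc11a2, the paralog of Slc11a1 known as DMT1, by -0.13 (interval -0.38 to 0.12), and neither passed. The list's median change was 0.07.

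With both agents, 1 rose (Slc39a14, 2.93-fold) and 2 fell (Cp and Slc25a28), against 17.6% of all genes called. With TsSP added to inulin 3 rose (Slc39a14, Trf and Heph) and 2 fell (Cp and Slc25a28), against 16.7%. Trf and Heph were called there in 6 of 21 and 7 of 20 alternatives (1 and 4 of the 12 that left out an array), and Heph was dimmer than background on all 6 arrays. Among 10 genes of iron regulation, Fbxl5, whose product marks iron regulatory protein 2 for degradation, was the 1 that rose with TsSP, at 2.06-fold (limma adjusted p = 7.58e-05), and 0 fell, against 11% of all genes higher and 7.08% lower, with a list median of -0.05. Fbxl5 was again the 1 called with both agents (1.95-fold, 17.6% of all genes called) and with TsSP added to inulin (2.00-fold, 16.7%). With a mean-variance trend or genes above background only, 2 genes of this list rose with both agents. With TsSP added to inulin, 2 rose with genes above background only or without inulin replicate 2. With positive control centring or without LPS replicate 2, 1 rose and 1 fell with TsSP. Ireb2, which encodes iron regulatory protein 2, differed by -0.01 (interval -0.31 to 0.29) with TsSP and did not pass.

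Of 14 genes of iron-sulfur cluster assembly, 2 rose and 2 fell with TsSP, against 11% of all genes higher and 7.08% lower, with a median change of 0.07. Isca1 rose 2.04-fold (limma adjusted p = 0.000317) and Glrx5 1.43-fold (adjusted p = 0.00985, and 0.13 with positive control centring). Nfu1 was 1.52-fold lower (adjusted p = 0.025) and did not pass without LPS replicate 1 (0.0748), LPS replicate 3 (0.0798), TsSP replicate 1 (0.0614) or TsSP replicate 2 (0.0949). Hspa9 was 1.40-fold lower (adjusted p = 0.0321) and did not pass without LPS replicate 1 (0.0959), LPS replicate 3 (0.105), TsSP replicate 1 (0.121) or TsSP replicate 3 (0.0741), with the replicate block (0.059) or with only the compared groups (0.0938). With both agents and with TsSP added to inulin 1 rose (Isca1) and 2 fell (Nfu1 and Lyrm4), against 17.6% and 16.7% of all genes called. With both agents, the 2 falls were lost without LPS replicate 1 or 3 or without replicate 1 or 3 of the cells with both (0.0545 to 0.0826 for Nfu1, 0.0758 to 0.09 for Lyrm4), and with only the compared groups in the fit (0.0719 for Nfu1, 0.098 for Lyrm4). Other settings added calls, with 1 higher and 4 lower for both agents with positive control centring. A mean-variance trend gave 1 higher and 4 lower for TsSP added to inulin. In the inulin comparisons and the interaction, 0 genes of any of the 6 lists passed in limma.

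Markers of other states moved with TsSP alongside these genes, and their part in the results was not tested. Of 9 measured macrophage markers, 2 rose with TsSP, 1 fell and 6 did not pass. Across all genes 11% were called higher and 7.08% lower. The macrophage marker gene Adgre1 was 2.08-fold lower with TsSP and Itgam 1.67-fold higher. Lyz2 passed as 1.36-fold higher (limma adjusted p = 0.0246), but its call held in 14 of 21 alternatives and was lost without any LPS array or without TsSP replicate 2 or 3 (0.0559 to 0.0976). With both agents and with TsSP added to inulin, 2 rose (Itgam and Fcgr1) and 1 fell (Adgre1), against 17.6% and 16.7% of all genes called. The log2 changes of Fcgr1 were 0.39 (limma adjusted p = 0.0267, called in 13 of 21 alternatives) and 0.34 (0.0474, called in 6 of 21). The summed log2 signal of the 9 measured macrophage markers was 135.5 to 136.7 with inulin and TsSP, 136.8 to 136.9 with TsSP, 136.1 to 136.3 with inulin and 135.7 to 136.6 with LPS alone. Of 8 measured neutrophil markers S100a8 was above background on the arrays with TsSP and on none without it, at least 5.82-fold higher with TsSP, and the other 7 lay below background in all groups. Of 8 osteoclast markers Mmp9 and Nfatc1 were above background in every group and Dcstamp with TsSP only (at least 1.77-fold higher), and all 7 measured lymphocyte markers lay below background on all arrays. Of 7 measured fibroblast and epithelial markers, Dcn was above background in every group. It did not pass with TsSP, but passed as 1.60-fold lower with both agents (limma adjusted p = 0.0476, called in 12 of 21 alternatives, 4 of the 12 that left out an array among them) and with TsSP added to inulin (0.049, called in 11 of 21, 3 of those 12 among them).

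Genes with the most similar group pattern were sought among 8279 others above background on all arrays, by the root mean square difference of the 4 centred group means. For Hmox1 these were Cerk, Gja1 and Sema6b, at 0.036, 0.041 and 0.047 on the log2 scale. For Slc40a1 they were Hells, Ap1g2 and Hivep2, at 0.015, 0.021 and 0.022. For Tfrc they were Zfp384, Larp1b and Snrnp40, at 0.0075, 0.014 and 0.015, close to a flat pattern. These are descriptions over 4 means, and many genes part the arrays with TsSP from those without.

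The balance of higher and lower calls over all genes depended on the scaling of the arrays. The share of calls that were higher was 60.8% as deposited and 31.8% with arrays centred on the positive controls for TsSP against LPS alone, 58.5% and 30.5% for both agents, and 52% and 37% for TsSP added to inulin. That centring shifted the median of all genes by -0.21, -0.20 and -0.11 in these comparisons. Among the 10 genes the count with it was 6 (4 higher and 2 lower), 6 (4 higher and 2 lower) and 5 (4 higher and 1 lower). Hmox1, Slc48a1, Blvrb, Slc11a1 and Slc40a1 passed in the same direction in each of the 21 alternatives in all 3 comparisons. The direction could not turn in those alternatives that leave the change itself as it was.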

How the data were processed

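RNA of 12 RAW 264.7 samples was hybridised to 1 Affymetrix mouse array each, per the labels' protocols. The authors deposited a log-scale signal for each probe set, taken as log2 from its range of 1.32 to 18.94. Their background correction and normalization are not stated in the sources used here, so any compression they caused is carried into the folds. Values were used as deposited.

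Of 28846 probe sets, 19572 carry 1 gene symbol, all matched by gene number to RefSeq (GRCm38.p6). For 55 genes with several probe sets the one with the highest mean was kept, leaving 19505 genes. A gene was above background on an array when brighter than the brightest of 23 background probes. A gene below it in the dimmer group gets a fold of "at least" its mean over that level.

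All 6 contrasts came from 1 limma fit (3.58.1, R 4.3.3) with 4 group means, 8 residual and 3.35 prior degrees of freedom. P-values are two-sided, Benjamini-Hochberg adjusted over all genes, with a threshold of 0.05. The fit was tested on simulated data. Plots used matplotlib 3.10.9.

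Alternatives were 8 other settings, each of the 12 arrays left out, and centring on positive control probe sets, which was chosen after seeing the data. The members and the 6 lists were chosen with earlier results of these data known. Some list genes are not reported here. The text names all 10 members, list genes that passed (by smallest p, up to 4 a list and comparison, or all of a stated count up to 5), and 3 genes each most like Hmox1, Slc40a1 and Tfrc. Alas1, Nfe2l2, Ftl1, Slc11a2, Ireb2, Cd163 and the cell markers were named beyond that rule after their values were seen.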

Additional observations from a re-analysis of the deposited data

How the results depend on the processing

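Over the alternatives, the number of the 10 genes past the threshold ranged over 5 to 6 for TsSP against LPS alone, 5 to 7 for both agents against LPS alone and 5 to 7 for TsSP added to inulin, and was 0 in the inulin comparisons and the interaction. Over all genes the counts ranged over 2688 to 4283, 2406 to 4259 and 2523 to 4032, and stayed 0 in the others. Of 1250 recomputed changes of the 10 genes, 21 crossed the threshold, all for Bach1 or Blvra, and 0 called changes turned in sign. Many of the recomputed fits alter only the spread or the genes tested, so the sign could not turn in them. A further 60 values that were called in neither fit turned in sign, none larger than 0.17 on the log2 scale. The cause was not tested. For Bach1 with both agents the trend gave 0.00607 and genes above background only gave 0.0154, and for TsSP added to inulin these gave 0.0162 and 0.0289 (adjusted p in limma). With replicate numbers as a block, the counts were 6, 5 and 5, and no call of the 10 genes changed. Same-numbered arrays did not deviate together (r of -0.098 to 0.119 over 18 pairs, 1 above 0.1), and 4 of 12 arrays correlated best with their own number, so the numbers were not taken to pair the samples. Among list genes the block ended the calls of Trf, Heph and Me1 in TsSP added to inulin and of Flvcr1 with both agents (0.0676), beside those given above. The fit with only the compared groups was not run for the interaction. Signal over background limits Uros, Hp, Spic, Heph and Maff, whose folds are not measured on both sides.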
